A study of Mus musculus with 27 samples.

Results

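The D-type cyclins Ccnd1, Ccnd2 and Ccnd3, their kinases Cdk4 and Cdk6, and the Myc family genes Myc, Mycn and Mycl were examined as a set of 8 genes chosen by name, out of 24454 genes measured by RNA-sequencing. All 8 passed the filter on low values, with 13270 genes tested in all. The 27 libraries came from 9 cell lines grown from mammary tumours of 12-week-old female MMTV-PyMT mice (FVB/N background), in which the MMTV promoter drives the polyoma middle T oncogene in the mammary epithelium. All lines carried mutant alleles of Bcl9 and Bcl9L (B9/B9L), coactivators that join β-catenin to Pygopus: ΔHD1 lacks the domain that binds Pygopus and ΔHD2 the domain that binds β-catenin. ΔHD1/fl (2 lines) and ΔHD2/fl (2 lines) kept a floxed wild-type allele, which in ΔHD1/- (2 lines) and ΔHD2/- (3 lines) had been recombined with an adenovirus expressing Cre and GFP, followed by sorting for GFP. Each line was measured with growth medium alone (no cytokine, 4 days), with Wnt3a (100 ng/ml, 3 days) and with TGFβ (2 ng/ml, 4 days). Lines with wild-type B9/B9L were not analysed here, so every group held a ΔHD1 or ΔHD2 allele.

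D-type cyclins bind Cdk4 and Cdk6, and the active kinases phosphorylate the retinoblastoma protein, which frees E2F factors and lets cells pass from G1 into S phase. Myc proteins pair with Max, bind E-box sequences in DNA and raise the transcription of genes for growth. Ccnd1 and Myc are textbook targets of β-catenin and Tcf in intestinal tumours, Ccnd1 is needed for the growth of the mammary epithelium in pregnancy, and TGFβ is known to arrest normal epithelial cells in G1, in part through repression of Myc and induction of Cdk inhibitors.

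The E-box is the DNA element that Myc proteins bind with Max, and the promoter of Cdk4 is shown because it held 4 copies. The sequence covers the 250 bases upstream of the start site in RefSeq (GRCm38.p6, chr10:127063285-127063534, plus strand, 5′ to 3′), with each CACGTG in capitals.
Cdk4: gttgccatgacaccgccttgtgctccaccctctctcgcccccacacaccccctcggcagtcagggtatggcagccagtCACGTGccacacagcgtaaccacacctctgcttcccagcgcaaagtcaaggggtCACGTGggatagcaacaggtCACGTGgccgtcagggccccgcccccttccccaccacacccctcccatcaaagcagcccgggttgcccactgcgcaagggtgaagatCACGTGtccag
The copies began 172, 118, 98 and 11 bases upstream of the start site. Of 32851 mouse promoters of the same length, 6.02% held at least 1 CACGTG and 7 (0.0213%) held at least 4. The same Cdk4 window held 1 CTTTGAT, the Tcf motif, read on either strand, 52 bases upstream, which 3.21% of promoters held.

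Promoter entries were found for 5 of the 8 genes (Ccnd3, Cdk4, Cdk6, Mycl and Mycn). The Cdk6 window held a single E-box, and the Mycn window held E2F motifs (TTTCGCG once and TTTGGCG at 2 places, overlapping in part). Both are shown as 30 bases 5′ to 3′ with the motifs in capitals (Cdk6 at chr5:3343661-3343690, plus strand, and Mycn at chr12:12941994-12942023, minus strand, GRCm38.p6).
Cdk6: gttctgcggcccCACGTGggtgaacccccg
Mycn: ggctTTTGGCGCGAAAggcTTTGGCGcctc
TTTCGCG was held by 0.703% of all promoters, against 1.26% for TTTGGCG. On both strands 6 motifs were searched: the Tcf motif given above and a variant of it, the E-box, a Smad motif and both E2F motifs. The variant of the Tcf motif was CTTTGTT, which 5.03% of promoters held. For the Smad motif the letters were CAGACA, held by 17.1%. The 2 Ccnd3 windows and the Mycl window held none of them. A match describes letters in this window and is not evidence that a factor binds there.

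Libraries held 21.86 to 33.69 M reads (M, 1000000 reads). Levels are in CPM, reads per 1000000 reads assigned to genes, and a gene with 0 reads may have been present at up to 3 reads, or 0.089 to 0.137 CPM by library, which covers counting error only. Replicates were different cell lines of 1 genotype. ΔHD2/- lines 2 and 3 correlated across genes at 0.993 to 0.997, against 0.885 to 0.907 with line 1, and whether they are independent is not shown. The cells were labelled epithelial, but ΔHD1/fl line 2 and ΔHD1/- line 2 nearly lacked Cdh1 (without cytokine 0.522 and 0.237 CPM, where ΔHD2/fl line 2 had the highest level, 1145 CPM). Over the 6 epithelial markers the summed level without cytokine ran from 358 CPM in ΔHD1/fl line 2 to 19530 CPM in ΔHD2/fl line 2. Over the 6 fibroblast markers it ran from 1.05 to 4957 CPM, highest in ΔHD1/- line 2 through Col1a1, Col1a2 and Pdgfra, while Lum was at or under 3 reads in every library and Dcn at most at 2.73 CPM. Immune markers were near 0 except for Cd68, and of the 3 endothelial markers the largest sum was 6.47 CPM.

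Ccnd1 supplied most of the D-type cyclin RNA, Cdk4 most of the kinase RNA and Myc most of the Myc family RNA in every line. On the scale of CPM per kb of exon, which allows levels of different genes to be compared, Ccnd1 made up 71.3% to 88.5% of the D-type cyclin sum without cytokine. Cdk4 made up 93.1% to 96.0% of the kinase sum, and Myc 91.8% to 99.97% of the Myc family sum. Among single genes the median levels without cytokine were 218 CPM per kb for Ccnd1, 213 for Cdk4, 77.6 for Myc, 43.2 for Ccnd3, 11.0 for Cdk6, 1.63 for Mycn, 0.678 for Mycl and 0.0996 for Ccnd2. In cultures of this kind, a smaller share of cells with an RNA and less RNA in each cell cannot be told apart.

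**Figure D1:**
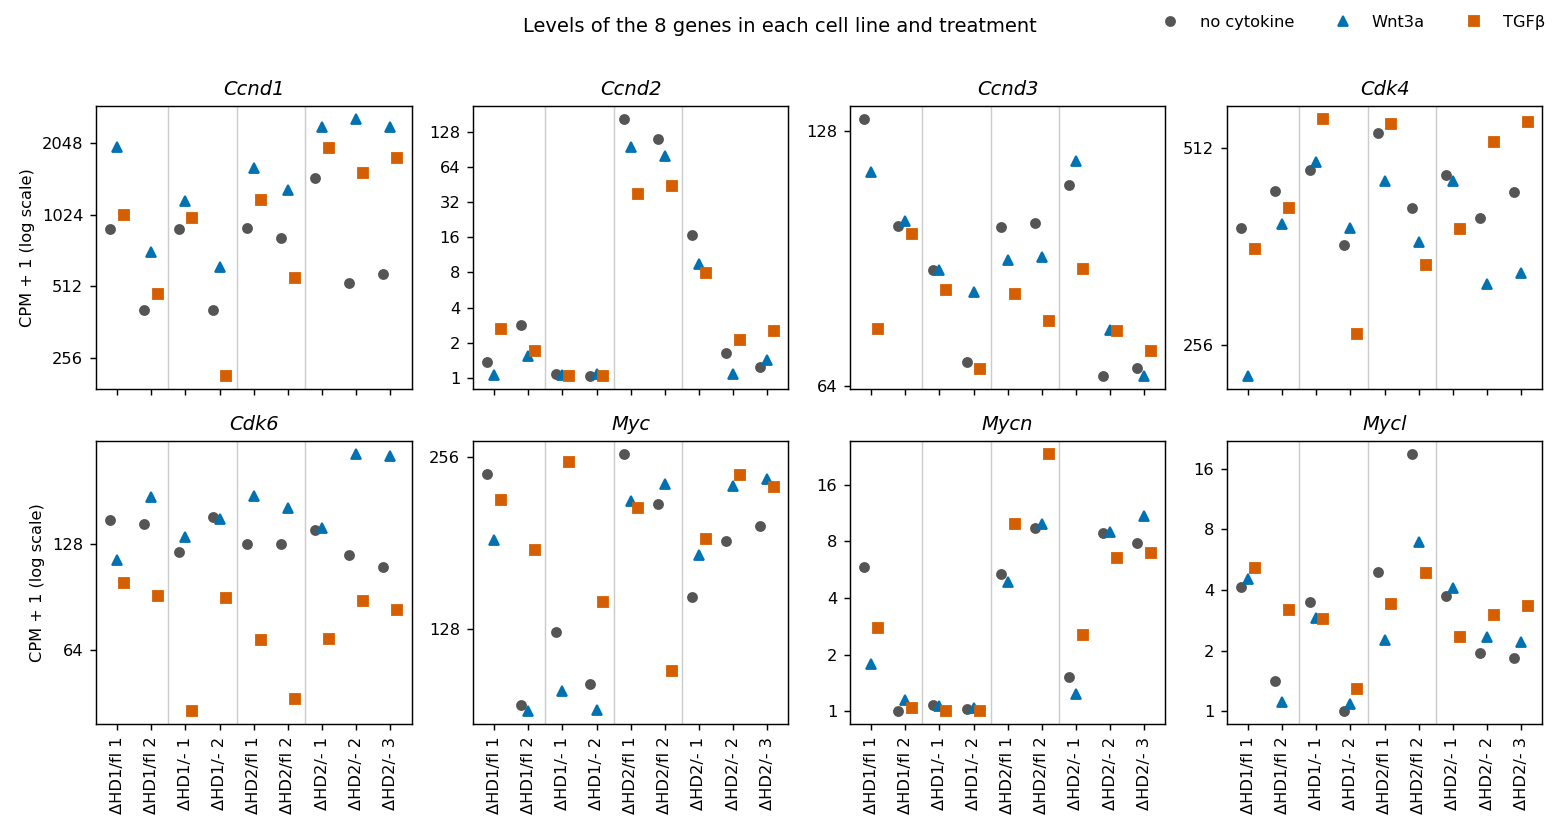
Level of each gene (CPM + 1, log axis that does not start at 0, a separate range in each panel) in the 9 cell lines, with 1 point per library and the treatment given by colour and shape. Ccnd2 is high in the 2 ΔHD2/fl lines, Cdk6 is lowest with TGFβ in every line, and Cdk4 and Ccnd3 vary over narrow ranges.

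Without cytokine, Cdk4 and Cdk6 were the steadiest of the 8 genes from line to line. Cdk4, on chromosome 10 (127063534 to 127067920), ranged from 363 CPM in ΔHD1/- line 2 to 539 CPM in ΔHD2/fl line 1 (median 438), a span of 1.49 times. Cdk6, on chromosome 5 (3341485 to 3531008), ranged from 109 CPM in ΔHD2/- line 3 to 151 CPM in ΔHD1/- line 2 (median 127), a span of 1.39 times. Ccnd3, on chromosome 17 (47505051 to 47599691), ranged from 64.9 CPM in ΔHD2/- line 2 to 131 CPM in ΔHD1/fl line 1 (median 97.5). Ordered by mean, all 11 pairs of neighbouring groups overlapped for Cdk4, 9 of 11 did for Ccnd3 and 8 of 11 for Cdk6.

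Ccnd1 and Myc differed more between lines. Ccnd1, on chromosome 7 (144929931 to 144939925), was lowest without cytokine in ΔHD1/- line 2 (405 CPM) and ΔHD1/fl line 2 (406 CPM) and highest in ΔHD2/- line 1 (1458 CPM), with a median of 816 CPM. Both low lines were those that nearly lacked Cdh1, and the part of cell identity in this difference was not tested. Myc, on chromosome 15 (61985391 to 61990374), ranged from 93.3 CPM in ΔHD1/fl line 2 to 258 CPM in ΔHD2/fl line 1, with a median of 181 CPM. Its lowest levels too, 93.3 CPM and 102 CPM in ΔHD1/- line 2, were in the lines that nearly lacked Cdh1, and the part of cell identity was not tested. Neighbouring groups overlapped in 10 of 11 pairs for Ccnd1 and in 10 of 11 for Myc. Apart from ΔHD2/- with Wnt3a, which stood above all other groups for Ccnd1 at 2457 ± 111 CPM (SD, n = 3), the order of the Ccnd1 groups was not resolved by their spread.

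Ccnd2, Mycn and Mycl were present in some lines and close to absent in others. Ccnd2, on chromosome 6 (127125162 to 127152193), reached 163 and 110 CPM in the ΔHD2/fl lines without cytokine and 15.9 CPM in ΔHD2/- line 1, and stayed at or under 1.83 CPM in the other 6 lines. In 2 of those 6, ΔHD1/- lines 1 and 2, it was at or under 3 reads. Mycn, on chromosome 12 (12936093 to 12941914), was at 4.35 and 8.40 CPM in the ΔHD2/fl lines, 7.84 and 6.87 CPM in ΔHD2/- lines 2 and 3, 0.524 CPM in ΔHD2/- line 1 and 4.85 CPM in ΔHD1/fl line 1. The other 3 ΔHD1 lines had 3 Mycn reads or fewer. Mycl, on chromosome 4 (122995652 to 123002485), peaked at 18.0 CPM in ΔHD2/fl line 2, and elsewhere it lay between 0 and 3.92 CPM without cytokine.

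The first question was how these genes responded to Wnt3a, the ligand of canonical Wnt signalling. Wnt3a libraries were taken at 3 days and those without cytokine at 4 days, so Wnt3a and time cannot be told apart. Ccnd1 was higher with Wnt3a in 9 of 9 lines, by 1.32-fold to 4.88-fold in CPM. In the ΔHD1/fl lines it went from 887 to 1964 CPM and from 406 to 712 CPM, and in the ΔHD1/- lines from 887 to 1173 CPM and from 405 to 614 CPM. In the ΔHD2/fl lines it went from 902 to 1614 CPM and from 816 to 1299 CPM. In ΔHD2/- lines 1, 2 and 3 it went from 1458 to 2389, from 529 to 2584 and from 574 to 2396 CPM. Lines 2 and 3, the pair that correlated most closely, began at similar levels below line 1, and all 3 lay within 2389 to 2584 CPM with Wnt3a.

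Averaged over genotypes the Ccnd1 log2FC (log2 fold change of CPM + 1) was 0.98 ± 0.33 (SE; limma adjusted p 0.8), or 1.97-fold. Ccnd1 was not called, since a call required an adjusted p of at most 0.05 and a log2FC of at least 1 in size. With cell line as a block, the change had an SE of 0.17 and an adjusted p of 0.0266, but remained just under the fold limit. Over 18 alternatives the value ran from 0.90 to 1.10. Those that vary only the thresholds, the filter, the groups in the fit or the block cannot move it. Over all genes tested, 4.95% moved in the same direction in all 9 lines with Wnt3a, and 1.73% were higher in all 9.

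None of the 8 genes was called for the mean Wnt3a response (0 of 8 by limma), and 0.0226% of all genes were called. At an unadjusted p under 0.05, 614 of the 13270 genes passed, Ccnd1 among them (unadjusted limma p 0.00804). With cell line as a block 0.241% of all genes were called and again 0 of the 8. Using edgeR on the recovered reads, 0 of the 8 were called, beside 0.0226% of all genes. Cdk6 was higher in 7 of 9 lines, with an average log2FC of 0.27 ± 0.15 (SE; limma adjusted p 1). Its highest levels with Wnt3a were 229 and 225 CPM in ΔHD2/- lines 2 and 3, from 118 and 109 CPM, while ΔHD2/- line 1 went from 139 to 141 CPM.

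The other genes showed no common direction with Wnt3a. Cdk4 was lower in 7 of 9 lines at a mean of -0.22 ± 0.16 (SE), with the largest move in ΔHD1/fl line 1, from 385 to 228 CPM. Ccnd2 had a mean of -0.41 ± 0.49 (SE), with 7 of 9 lines lower, though both ΔHD1/- lines were at or under 3 reads with and without Wnt3a, so their direction cannot be read, and in the ΔHD2/fl lines it went from 163 to 94.0 and from 110 to 77.4 CPM. Ccnd3 had a mean of 0.00 ± 0.13 (SE), with lines between -0.21 and 0.27. Myc, the other textbook Wnt target, had a mean of -0.06 ± 0.19 (SE), lower in 5 and higher in 4 lines.

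Myc moved both ways with Wnt3a. It was higher in 3 of 3 ΔHD2/- lines, going from 145 to 171, from 181 to 226 and from 193 to 233 CPM. It was lower in all 4 ΔHD1 lines, from 238 to 182 and from 93.3 to 90.9 CPM in ΔHD1/fl and from 125 to 98.9 and from 102 to 91.5 CPM in ΔHD1/-. The ΔHD2/fl lines went opposite ways, from 258 to 213 and from 211 to 229 CPM. None of the 8 genes was called for Wnt3a in a single genotype (0 of 8 in each of the 4 by limma), where 0.113% of all genes were called in ΔHD2/fl, 0.0151% in ΔHD1/fl and 0.00754% in each recombined genotype. At an unadjusted limma p under 0.05 there were 2 of the 8 in ΔHD2/- (Ccnd1 and Cdk6), beside 124 of the 13270 genes, and 0 in ΔHD1/fl, ΔHD1/- and ΔHD2/fl, beside 212, 27 and 174. With the block these were again 2 in ΔHD2/-, beside 728 of all genes, with 1 in ΔHD1/fl (Ccnd1) beside 1183, 1 in ΔHD2/fl (Mycl) beside 839 and 0 in ΔHD1/- beside 221. Mycn and Mycl gave means of -0.18 ± 0.49 and -0.32 ± 0.40 (SE; limma adjusted p 1 for both), with 5 of 9 lines higher for each, counts that include lines at or under 3 reads in both libraries.

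**Figure D2:**
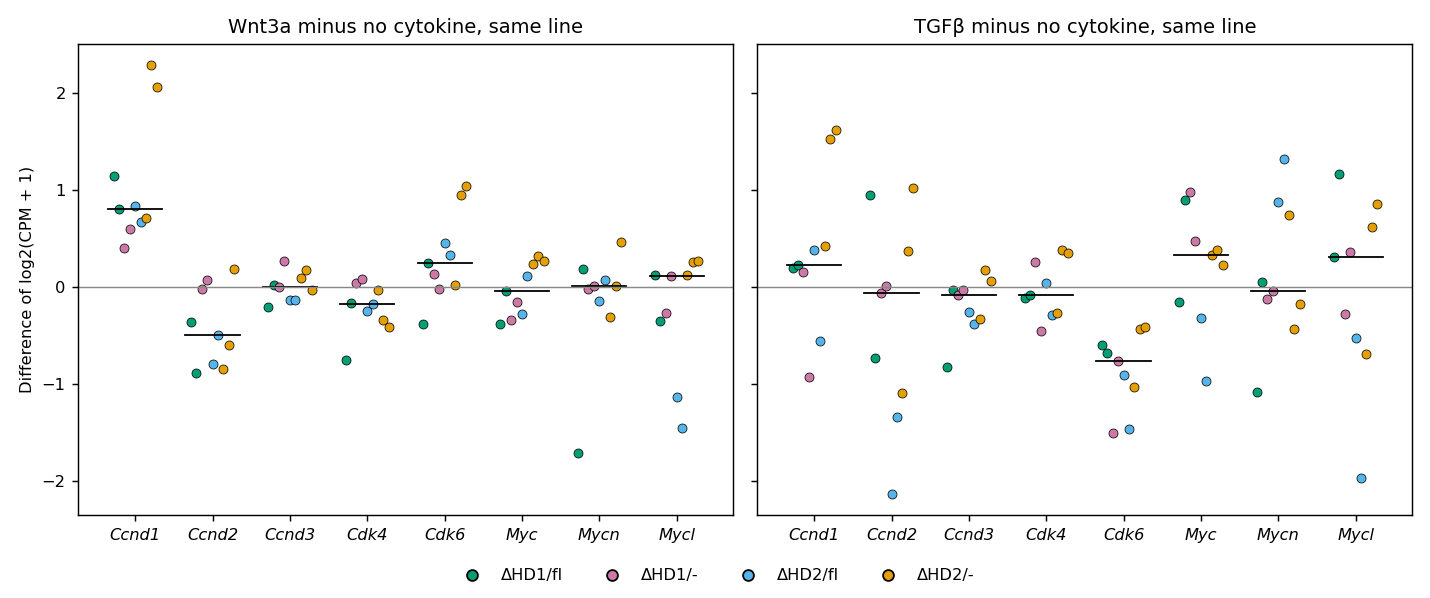
Change of each gene within each line, as the difference of log2(CPM + 1) between the treated and the untreated library, for Wnt3a (left) and TGFβ (right). Points are the 9 lines coloured by genotype and black bars are medians. All 9 lines are above 0 for Ccnd1 with Wnt3a and below 0 for Cdk6 with TGFβ, and the other genes fall on both sides of 0.

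The next question was how the genes changed under TGFβ, the inducer of epithelial-mesenchymal transition in the study, and of the 8 genes Cdk6 moved most uniformly. Cdk6 was lower in 9 of 9 lines, at 0.348 to 0.749 of the untreated level in CPM. In the ΔHD1/fl lines it went from 148 to 97.6 CPM and from 145 to 90.0 CPM, and in the ΔHD1/- lines from 120 to 41.8 CPM and from 151 to 88.7 CPM. In the ΔHD2/fl lines it went from 127 to 67.1 CPM and from 127 to 45.5 CPM. In the ΔHD2/- lines it went from 139 to 67.4, from 118 to 87.1 and from 109 to 81.7 CPM. The highest Cdk6 level with TGFβ, 97.6 CPM, lay below the lowest without cytokine, 109 CPM. The epithelial marker sum with TGFβ ran from 37.6 to 6672 CPM, against 358 to 19530 CPM without cytokine, and the fibroblast marker sum from 3.25 to 4352 CPM, and their part in the Cdk6 change was not tested.

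The Cdk6 log2FC for TGFβ, averaged over genotypes, was -0.89 ± 0.15 (SE; limma adjusted p 0.000645), or 0.538 of the untreated level. It passed the adjusted p limit but not the fold limit, so it was not called under the full rule. Without a fold limit Cdk6 was the 1 gene of the 8 that passed, where 16.8% of all genes did. Over 18 alternatives the value ran from -0.99 to -0.72 and the adjusted p from 0.000139 to 0.0109. Those that vary only the thresholds, the filter, the groups in the fit or the block cannot move the value. Over all genes tested, 21.1% moved in the same direction in all 9 lines with TGFβ, and 15.7% were lower in all 9.

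Changes with TGFβ are given on the CPM scale, on which the median over all genes was -0.16. Relative to that median, Cdk6 was at -0.73, Ccnd3 at -0.04, Cdk4 at 0.12, Myc at 0.36 and Ccnd1 at 0.40. Median-of-ratios scaling brought the median of all genes to -0.02 and the share of higher genes among those called from 34.4% to 50.1%. Under that scaling Cdk6 stayed lower at -0.72 ± 0.14 (SE; limma adjusted p 0.00255), while Cdk4 went from -0.04 to 0.13. The share of Cdk6 in the kinase sum per kb, which does not depend on the scaling, was 4.02% to 6.90% without cytokine, 1.30% to 5.63% with TGFβ and 4.63% to 11.4% with Wnt3a.

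**Figure D3:**
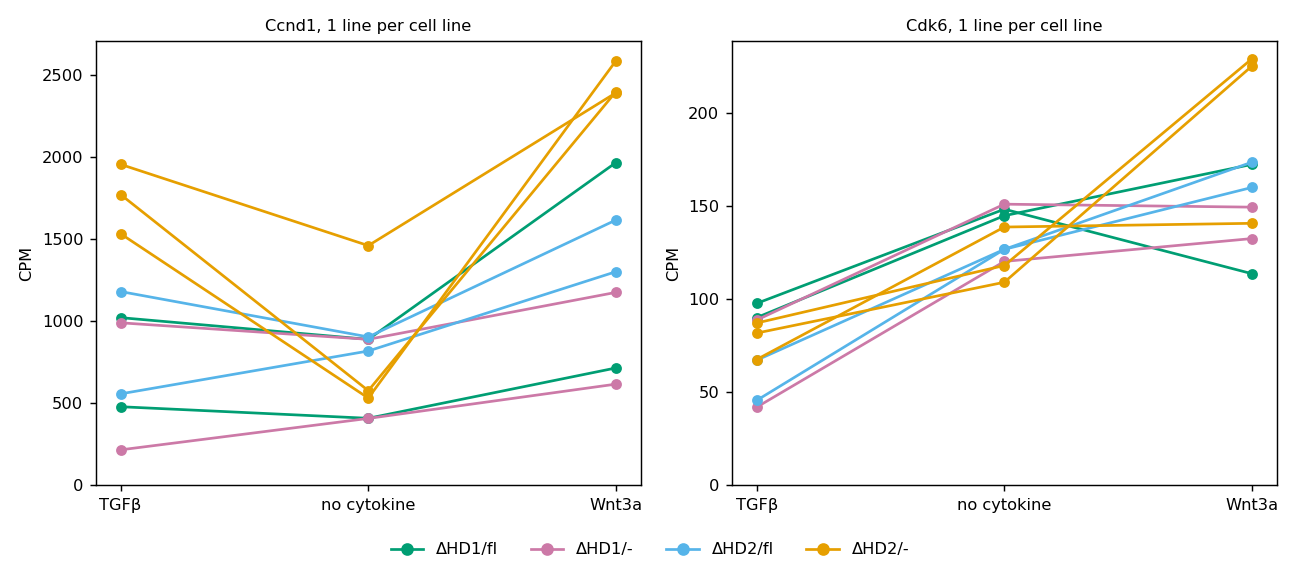
CPM of Ccnd1 (left) and Cdk6 (right) with TGFβ, no cytokine and Wnt3a, with 1 connected line per cell line coloured by genotype. Ccnd1 is higher with Wnt3a than without cytokine in all 9 lines but moves both ways with TGFβ, and every Cdk6 value with TGFβ lies below 109 CPM, the lowest value without cytokine.

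By the full rule 0 of the 8 genes were called for the mean TGFβ response, where 5.42% of all genes were called, and with cell line as a block 0 of the 8, where 8.92% were. Unadjusted limma p-values under 0.05 numbered 4156 over all genes and 1 among the 8 (Cdk6), or 2 with the block (Ccnd3 and Cdk6), where 7262 of all genes were under 0.05, and edgeR on the recovered reads called 0 of the 8 and 6.44% of all genes. Within single genotypes 0 of the 8 were called by limma without the block (0.211% of all genes in ΔHD1/fl, and the shares given next elsewhere), and the block made 4 calls. With the block Cdk6 was called lower in ΔHD1/- at -1.13 ± 0.26 (SE; limma adjusted p 0.0108, against 0.0784 without the block), where 9.33% of all genes were called with the block and 1.43% without. In ΔHD2/fl lines it was called lower at -1.18 ± 0.26 (SE; limma adjusted p 0.0166, against 0.137), where 5.24% were called with the block and 0.286% without.

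Ccnd2 and Ccnd1 gave the other block calls. Ccnd2 went from 163 to 36.6 and from 110 to 42.8 CPM with TGFβ in the ΔHD2/fl lines, the only genotype in which both lines had a high level. This was a log2FC of -1.73 with an SE of 0.44 and limma adjusted p 0.0284 with the block, and an SE of 1.03 and adjusted p 0.686 without it. In the ΔHD1 lines it was at most 1.83 CPM with or without TGFβ, and in the ΔHD2/- lines it went from 15.9 to 6.89, from 0.630 to 1.11 and from 0.251 to 1.54 CPM. The mean response of Ccnd2 was -0.39 ± 0.49 (SE; limma adjusted p 0.636).

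Ccnd1 took opposite directions in different lines with TGFβ. It was higher in 7 of 9 lines, among them the ΔHD2/- lines, from 1458 to 1953, from 529 to 1530 and from 574 to 1769 CPM. The change was smaller in line 1 than in lines 2 and 3, the pair whose independence is not shown. Those 3 lines gave a log2FC of 1.19, with limma adjusted p 0.0184 and SE 0.30 with the block and adjusted p 0.453 and SE 0.56 without it, where 6.03% and 0.806% of all genes were called. Without the block the value was 1.00 with lines 2 and 3 averaged into 1 line and 0.98, under the fold limit, without line 3 (limma adjusted p 1 for both). It was lower in ΔHD1/- line 2, from 405 to 213 CPM, and in ΔHD2/fl line 2, from 816 to 555 CPM. The mean over genotypes was 0.23 ± 0.33 (SE; limma adjusted p 0.671).

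Myc did not follow 1 direction with TGFβ. It was higher in 6 of 9 lines and had an average log2FC of 0.19 ± 0.19 (SE; limma adjusted p 0.526). The largest differences were in ΔHD1/- line 1, from 125 to 249 CPM, and in ΔHD2/fl line 2, from 211 to 107 CPM. Mycn in ΔHD2/fl went from 4.35 to 8.85 and from 8.40 to 22.4 CPM, and in line 2 it then made up 15.2% of the Myc family sum per kb. Mycl in the same 2 lines went from 3.92 to 2.42 and from 18.0 to 3.87 CPM. None of these changes was called in ΔHD2/fl (limma adjusted p 0.700 for Myc, 0.830 for Mycn and 0.729 for Mycl). With the block they were not called either (limma adjusted p 0.114, 0.101 and 0.0731, in that order). At an unadjusted limma p under 0.05, the block fit held 5 of the 8 genes there, beside 3774 of all genes. These were Ccnd2, Cdk6, Myc, Mycn and Mycl, against Cdk6 alone without the block, beside 1156. Every other genotype had 2 with the block, beside 3665 to 4510, and 0 to 2 without it, beside 1260 to 1777. Mean responses were 0.14 ± 0.49 for Mycn and -0.05 ± 0.40 for Mycl (SE). With edgeR on recovered reads the Mycn value turned to -0.89 (adjusted p 0.597), so its direction was not settled. Ccnd3 had -0.21 ± 0.13 (SE; limma adjusted p 0.296).

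The D-type cyclin sum followed Ccnd1, its main part. Per kb, the sum with Wnt3a was 1.28 to 4.25 times that without cytokine and was higher in 9 of 9 lines. With TGFβ it was 0.625 to 2.76 times, higher in 7 of 9 lines. Ccnd2 reached 8.33% of the sum in a ΔHD2/fl line without cytokine and at most 3.06% with Wnt3a and 3.59% with TGFβ in any line. The Cdk4 and Cdk6 sum stayed within 0.604 to 1.28 times under either cytokine.

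**Figure D4:**
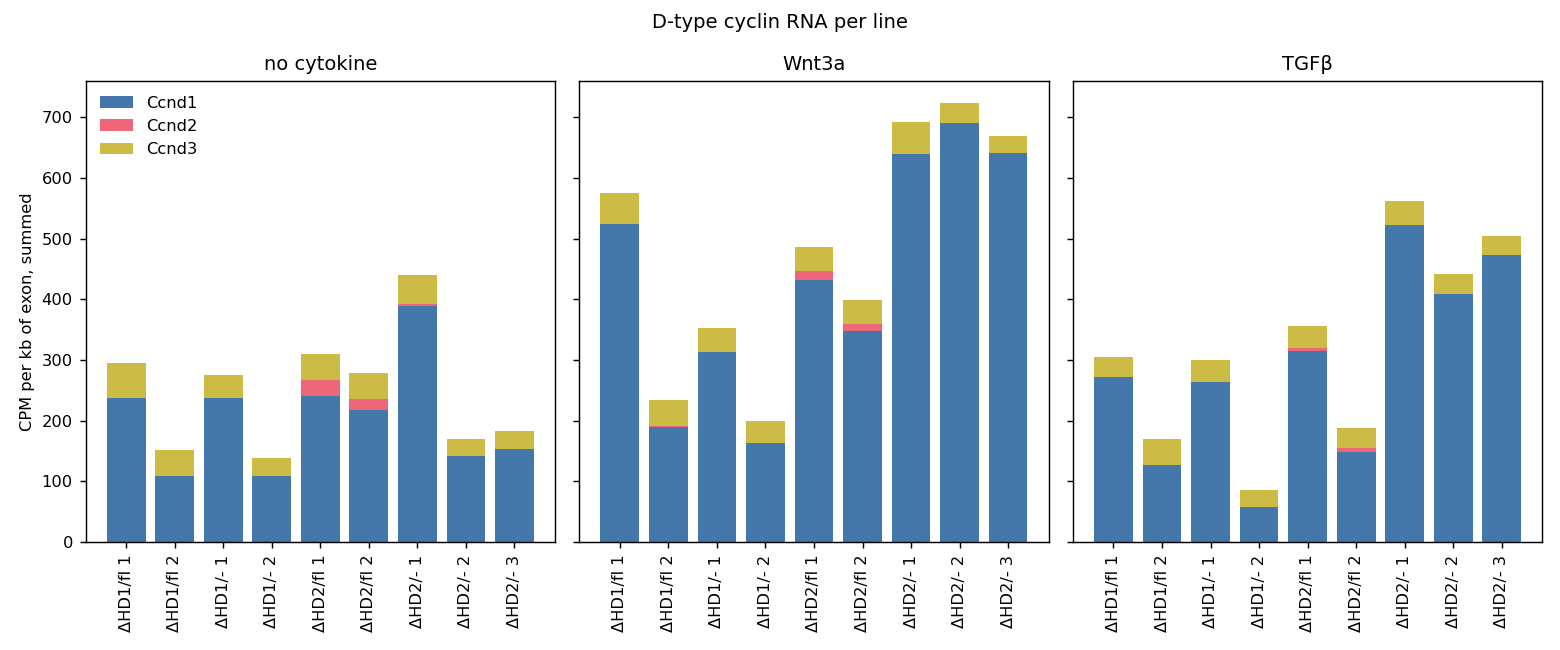
D-type cyclin RNA in each library as stacked bars of CPM per kb of exon for Ccnd1, Ccnd2 and Ccnd3, in 3 panels for no cytokine, Wnt3a and TGFβ. Ccnd1 is the tallest part of every bar, the sum is higher with Wnt3a than without in all 9 lines, and a visible Ccnd2 part is mainly in the ΔHD2/fl lines.

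Recombined and fl lines were compared next. Each group held 2 or 3 lines, so loss of the wild-type allele, the virus and sorting, and differences between lines cannot be told apart. Ccnd2 was lower in ΔHD2/- than in ΔHD2/fl lines under all 3 treatments, with no overlap. Without cytokine the ΔHD2/fl lines were at 163 and 110 CPM and the ΔHD2/- lines at 15.9, 0.630 and 0.251 CPM, means of 137 ± 38.1 (SD, n = 2) and 5.58 ± 8.90 CPM (SD, n = 3). With Wnt3a the means were 85.7 ± 11.7 and 2.97 ± 4.70 CPM, and with TGFβ 39.7 ± 4.36 and 3.18 ± 3.22 CPM. The lowest ΔHD2/fl line exceeded the highest ΔHD2/- line by 6.91, 9.22 and 5.32 times in that order. The epithelial marker sum did not overlap either without cytokine, at 10790 and 19530 CPM in ΔHD2/fl and 5742, 3825 and 3774 CPM in ΔHD2/- lines, or with Wnt3a, while with TGFβ it overlapped, and its part in the Ccnd2 difference was not tested.

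The Ccnd2 log2FC was -5.37 ± 0.94 without cytokine (SE; limma adjusted p 0.00725) and -5.14 ± 0.94 with Wnt3a (SE; limma adjusted p 0.0102). These were the calls among the 8 genes in ΔHD2/- against ΔHD2/fl (1 of 8 each, where 0.55% and 0.686% of all genes were called). With TGFβ the difference was -3.54 ± 0.94 (SE; limma adjusted p 0.151) and 0 of the 8 were called (0.354% of all genes). Both calls were lost without ΔHD2/- line 2 (adjusted p 0.0765 and 0.102) or line 3 (0.112 and 0.0842), without either ΔHD2/fl line, and with edgeR on recovered reads (adjusted p 0.471 and 0.432). The log2FC itself kept its sign in all 14 alternatives of each comparison and ran from -6.56 to -4.61 without cytokine and from -6.51 to -4.56 with Wnt3a. Alternatives that vary only the thresholds, the filter or the groups in the fit leave this value unchanged. Without ΔHD2/- line 1 the TGFβ difference was called too, at -4.13 (limma adjusted p 8.58e-06), beside 445 of 13200 genes. That fit rests on lines 2 and 3, which correlated at 0.996 with TGFβ and whose independence is not shown.

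No member was called between ΔHD1/- and ΔHD1/fl lines (0 of 8 by limma under each treatment, where 0.0678%, 0.0452% and 0.0301% of all genes were called). The same held for edgeR, which called 0, 1 and 0 of the 13270 genes. At an unadjusted p under 0.05, limma without a block had 0 of the 8 under each treatment, beside 644, 777 and 1091 of the 13270 genes. In edgeR there were 1 (Mycn) without cytokine, 0 with Wnt3a and 1 (Mycn) with TGFβ, beside 668, 877 and 981. The groups did not overlap for 2 of the 8 genes without cytokine (Ccnd2 and Ccnd3), for 2 with Wnt3a (Ccnd3 and Mycn) and for 4 with TGFβ (Ccnd2, Cdk6, Mycn and Mycl), each with the lower values in ΔHD1/-. The Mycn gaps were 4 reads against 2 with Wnt3a and 1 read against 0 with TGFβ between the nearest lines, which cannot be told apart at this depth. Ccnd3 was at 131 and 97.9 CPM in ΔHD1/fl and 86.7 and 67.5 CPM in ΔHD1/- lines without cytokine. Over all genes, 26.9% without cytokine, 23.6% with Wnt3a and 29.5% with TGFβ did not overlap in these lines, so a gap of this kind is common with 2 lines a group.

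In the ΔHD2 lines, Ccnd1 did not overlap with Wnt3a (1456 ± 223 against 2457 ± 111 CPM, SD, n = 2 and 3) or with TGFβ (866 ± 441 against 1751 ± 212 CPM), higher in ΔHD2/- both times. Without cytokine the Ccnd1 groups overlapped. Myc without cytokine was lower in ΔHD2/- (235 ± 33.4 against 173 ± 25.1 CPM), and Mycn with TGFβ was lower (15.6 ± 9.62 against 4.35 ± 2.44 CPM). Cdk6 with TGFβ was higher in ΔHD2/- (56.3 ± 15.3 against 78.7 ± 10.1 CPM). Mycl was lower in ΔHD2/- without cytokine (11.0 ± 9.95 against 1.51 ± 1.08 CPM) and with TGFβ (3.15 ± 1.03 against 1.89 ± 0.514 CPM). None of these gaps was called, and 27.3% of all genes without cytokine, 30.9% with Wnt3a and 26.9% with TGFβ had groups that did not overlap.

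The response itself was compared between recombined and fl lines as an interaction. No member was called in any of the 4 tests (0 of 8 by limma with and without the block, and 0 of 8 by edgeR, which called 0 of all genes). At an unadjusted p under 0.05, limma without the block had 0 of the 8 in each. Beside these, 15 and 74 of the 13270 genes passed for Wnt3a in ΔHD1 and ΔHD2, and 130 and 179 for TGFβ. In edgeR there were also 0 of the 8 in each, beside 25 and 20 for Wnt3a and 139 and 111 for TGFβ. With the block, 4 of the 8 were under 0.05 unadjusted for the TGFβ difference in ΔHD2 (Ccnd1, Ccnd2, Myc and Mycl, limma adjusted p 0.462 to 0.527), beside 1167 of the 13270 genes, 1 for the Wnt3a difference in ΔHD2 (Mycl, adjusted p 1), beside 374, and 0 for both in ΔHD1, beside 155 for Wnt3a and 1091 for TGFβ. Over all genes the Wnt3a difference was called for 0% in ΔHD1 and 0.0151% in ΔHD2 lines, and for 0% and 0.121% with the block. The TGFβ difference was called for 0.00754% and 0.0301%, and for 0.0226% and 0.098% with the block. Ccnd1 had a larger TGFβ change in ΔHD2/- than in ΔHD2/fl lines by 1.28 ± 0.88 on the log2 scale (SE; limma adjusted p 1), with an SE of 0.47 and adjusted p 0.527 with the block. These tests do not show that the responses were alike. Every fl line moved one way and every recombined line the other for 1 of the 8 genes in ΔHD1 with Wnt3a (11.0% of all genes), 0 in ΔHD1 with TGFβ (4.32%), 1 in ΔHD2 with Wnt3a (7.84%) and 1 in ΔHD2 with TGFβ (2.83%).

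Genes around the 8 members were read from lists chosen by name. Of 7 Cdk inhibitors, 6 were tested, and with TGFβ 1 rose and 3 fell, where 1.86% of all genes rose and 3.56% fell, with a list median of -0.25 against -0.16 over all genes. Cdkn1a, a Cip/Kip inhibitor, rose by 1.04 ± 0.33 (SE; limma adjusted p 0.039) in 9 of 9 lines. Cdkn1b, of the same family, fell by 1.04 ± 0.23 (adjusted p 0.0054). Cdkn2c and Cdkn2d, Ink4 inhibitors that bind Cdk4 and Cdk6 directly, fell by 1.87 ± 0.32 (adjusted p 0.000998) and 1.03 ± 0.23 (adjusted p 0.00658), and these 3 were lower in 9 of 9 lines. The values of the lists are on the CPM scale, where the median over all genes was -0.16, and Cdkn1b and Cdkn2d passed the fold limit narrowly. Cdkn2b, an Ink4 gene known to be induced by TGFβ, was called with the block only, at 1.14 with an SE of 0.23 and adjusted p 0.00163 (adjusted p 0.483 without it). With Wnt3a 0 of the 6 were called by limma with or without the block.

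The lists further along the pathway were read against the 5.42% of all genes called with TGFβ (8.92% with the block). Of 17 genes for other G1/S cyclins, their kinases and Rb and E2F proteins, 1 fell, E2f8, an E2F repressor, by 1.08 ± 0.36 (SE; limma adjusted p 0.0472), and the list median was -0.22. Of 16 E2F target genes of S phase, 1 fell, Mki67, by 1.63 ± 0.44 (adjusted p 0.0176), and Ccna2 and Tk1 joined it with the block (-1.11 and -1.04, adjusted p 0.00577 and 0.0199). The median of that list was -0.50. Of 9 tested partners and antagonists of Myc, 0 were called without the block and 1 with it, Mxd3, at -1.17 (adjusted p 0.000817). Of 16 Myc target genes of ribosome and nucleotide synthesis 0 were called with either fit, and their median of -0.10 lay near that of all genes.

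With Wnt3a, 0 genes of these lists were called by limma with or without the block. The list medians were -0.07 for the G1/S genes, 0.30 for the Cdk inhibitors, -0.04 for the Myc partners, -0.02 for the Myc targets and 0.11 for the E2F targets, against -0.06 over all genes. The largest mean responses among the Myc partners and the E2F targets were 1.09 ± 0.49 for Mxd1, which encodes a Max partner that opposes Myc, and -1.10 ± 0.44 for Mki67 (SE; limma adjusted p 1 and 0.982). For the Cdk inhibitors it was 0.75 ± 0.33 for Cdkn1a (SE; limma adjusted p 0.9998, and 0.058 with the block), higher in 9 of 9 lines. Among the genes that check the cytokines, Axin2 rose with Wnt3a by 4.22 ± 0.19 (SE; limma adjusted p 7.26e-10), in 9 of 9 lines.

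The 8 genes varied largely apart from each other. Over the 27 libraries, which share cell lines, the highest Pearson correlation of log2(CPM + 1) between any pair was 0.589 for Ccnd2 and Mycl, followed by 0.539 for Myc and Mycn and 0.511 for Myc and Mycl. Ccnd1 and Myc correlated at 0.501, Ccnd1 and Cdk4 at 0.121, and Cdk4 and Cdk6 at -0.251. Myc correlated with Cdk4 at 0.163 and with Cdk6 at -0.0956. The genes most like each member across the libraries were Mir3962 (0.934), BC021767 and Mab21l4 for Ccnd1, Fam81a (0.942), Tmem30b and Hykk for Ccnd2, and Lbp (0.862), Abhd6 and Rexo4 for Ccnd3. For the kinases they were Rbm17 (0.845), Hus1 and Cep78 for Cdk4, and Afap1l2 (0.857), Mtmr1 and Arrdc3 for Cdk6. For the Myc family they were Ddx54 (0.882), Tigar and Cmtr2 for Myc, Zfp418 (0.897), Cadm4 and Plagl1 for Mycn, and Ccdc116 (0.825), Nectin4 and Zfp296 for Mycl. These values describe 27 libraries of 9 lines and carry no test.

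Genes on the opposite strand reach the exons of 5 members in the annotation (LTO1 for Ccnd1, Gm43126 and 9330179D12Rik for Ccnd2, Bysl for Ccnd3, Tspan31 for Cdk4 and Gm17590 for Cdk6). The libraries were stranded, but the strand setting of the counting is not given in the sources used here, so reads of these neighbours may be part of the levels. No gene reaches the exons of Myc, Mycn or Mycl.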

How the data were processed

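Per the labels and the methods of the study, the authors made stranded mRNA libraries, sequenced single reads, kept unique STAR alignments to mm10 and counted reads starting in RefSeq exons with QuasR. The deposited table held CPM without further scaling by the authors, and 100% of values were whole multiples of 1 read (within 0.01 reads), so reads were recovered. Genes reaching 1 CPM in 2 or more libraries were tested as log2(CPM + 1), which understates changes of low genes, with limma 3.58.1 (trend and robust, R 4.3.3) in 1 fit of 12 group means, for 20 comparisons. A call needed a p of 0.05 or less after Benjamini-Hochberg adjustment over all genes, and a log2FC of 1 or more in size. Libraries of 1 cell line deviated together across treatments (r 0.509 to 0.94), so cell line was also fitted as a block. As alternatives, the scaling (median of ratios), the pseudocount (0.1), the thresholds and the groups in the fit were varied, the filter was dropped, recovered reads were tested with edgeR 4.0.16, and each line was left out in turn. Averaging ΔHD2/- lines 2 and 3 was added after seeing the data. Coordinates and exon lengths are from GRCm38 and promoters from RefSeq. Besides the 8 genes, the text names called genes of each list (otherwise those of largest mean response) and the 3 genes most correlated with each member. Members, lists and tests were chosen with earlier results of these data known.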

Additional observations from a re-analysis of the deposited data

Results flagged for a closer look

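In 3 of 32 combinations of gene, cytokine and allele, every fl line moved one way and every recombined line the other, which 2.83% to 11.0% of all genes did in a given combination of cytokine and allele. With Wnt3a, Cdk4 was lower in both ΔHD1/fl lines and slightly higher in both ΔHD1/- lines, a difference in response of 0.52 ± 0.48 on the log2 scale (SE; limma adjusted p 1). With TGFβ, Myc was lower in both ΔHD2/fl lines and higher in all 3 ΔHD2/- lines, by 0.96 ± 0.52 (SE; limma adjusted p 1). With Wnt3a, Mycl was lower in both ΔHD2/fl lines and higher in all 3 ΔHD2/- lines, by 1.51 ± 1.08 (SE; limma adjusted p 1), at levels of 18.0 CPM or less. With cell line as a block the SEs were 0.35, 0.32 and 0.54, and the unadjusted limma p-values 0.155, 0.0114 and 0.0158, in that order (adjusted p 1, 0.477 and 1). After adjustment none of the 3 differences passed the test of the difference itself with either fit.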

How the results depend on the processing

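In 11 of the 20 comparisons 0 of the 8 genes were called under every alternative run. Thresholds of 0.05 on the unadjusted p and 1.5-fold gave 1 call for the mean Wnt3a response (Ccnd1, beside 304 of the 13270 genes), 1 for the mean TGFβ response (Cdk6, beside 2161), 2 for Wnt3a in ΔHD2/- (beside 105), 1, 1 and 2 for TGFβ in ΔHD1/-, ΔHD2/fl and ΔHD2/- (beside 1607, 1028 and 1175), and 2, 1 and 1 for ΔHD2/- against ΔHD2/fl without cytokine, with Wnt3a and with TGFβ (beside 977, 981 and 829). Without a fold limit the mean TGFβ response gave 1 call (Cdk6). With cell line as a replicate block TGFβ gave 1, 2 and 1 calls in ΔHD1/-, ΔHD2/fl and ΔHD2/-, and the block changed no other treatment call. For ΔHD2/- against ΔHD2/fl, both calls of Ccnd2 (no cytokine, Wnt3a) went to 0 with a pseudocount of 0.1, with the compared groups alone, with edgeR, with lines 2 and 3 averaged, and with the replicate number as a block (adjusted p 0.855 and 0.722). That block left out ΔHD2/- line 3, and whether equal numbers mark a shared tumour is not given (correlations of deviations 0.0871 to 0.19 in ΔHD2 and 0.117 to 0.472 in ΔHD1). For ΔHD1/- against ΔHD1/fl the same block called 0 of the 8, with 1 at an unadjusted limma p under 0.05, Ccnd2 with TGFβ (p 0.0461, adjusted p 1), beside 306 of all genes. In ΔHD2 it had Ccnd2 under 0.05 with each treatment (unadjusted limma p 0.00808, 0.00874 and 0.011) and Mycn with TGFβ (p 0.0146), beside 674, 773 and 578 of all genes without cytokine, with Wnt3a and with TGFβ. The cause of these losses was not tested. Leaving out 1 ΔHD2/- line at a time gave 0 to 1 calls under each treatment. Beside them, 26 to 749 of all genes were called without cytokine, 27 to 682 with Wnt3a and 12 to 445 with TGFβ.

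The mean responses whose direction turned were not called without the block. Under median-of-ratios scaling the mean Wnt3a response of Ccnd3 was 0.070 and of Myc 0.0089, and the mean TGFβ response of Cdk4 was 0.13 and of Mycl 0.053. With edgeR, Ccnd3 with Wnt3a was 0.060, Cdk4 with TGFβ 0.15 and Mycn with TGFβ -0.89, and with a pseudocount of 0.1 Mycl with TGFβ was 0.27. Leaving out 1 line at a time, the ranges were -0.037 to 0.031 for Ccnd3 and -0.42 to 0.054 for Mycn with Wnt3a, and -0.13 to 0.049 for Cdk4, -0.0043 to 0.28 for Mycn and -0.23 to 0.13 for Mycl with TGFβ. Levels per kb were used for comparisons between genes only. Groups of 2 or 3 lines limit what could be called, and for Ccnd2, Mycn and Mycl several libraries held 3 reads or fewer.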
